A study of Homo sapiens with 6 samples.

Results

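Purine and pyrimidine nucleotides are built by 2 short pathways, and this account follows the mRNAs of 10 of their enzymes: PPAT, GART, PAICS, ADSL, ATIC and IMPDH2 on the purine side and CAD, DHODH, UMPS and CTPS1 on the pyrimidine side. The genes were chosen by name as enzymes of these pathways, with earlier results of these data known. All 10 had at least 1 probe set that carries a single gene symbol, out of 19775 genes with such a probe set, and the brightest probe set on average stood for each gene. The 10 genes have 29 such probe sets in all, and the other 19 are given beside the chosen ones. All 10 passed the filter on dim genes (a mean of at least 5 log2 units), as did 13506 genes in all.

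The cells were A375, a human melanoma cell line with an activated BRAF kinase. In all of them EIF4B, which encodes a cofactor of the helicase that prepares mRNAs for translation, had been knocked out by CRISPR. The stable line KO/LacZ (the knockout) then received LacZ by lentivirus, and the stable line KO/eIF4B (the rescued cells) received unmutated eIF4B the same way, from a transgene and not from its own gene. Each line was measured on 1 Affymetrix array under vehicle (DMSO), after 6 h and after 18 h of 10 µM vemurafenib, an inhibitor of mutant BRAF. With 1 array per combination of line and treatment, the additive fit of line and treatment takes its error from the disagreement between the lines. No time is stated for vehicle, so time in culture and drug cannot be told apart. Separate cultures are not stated either, and p-values then measure only the spread of these arrays, which may be technical. Levels are log2 intensities, and 3 values of a line are always given as vehicle, 6 h, 18 h. EIF4B itself read 8.40, 8.53, 8.53 in KO/LacZ and 10.07, 10.14, 10.28 in KO/eIF4B (log2 difference -1.68, limma adjusted p = 0.0056). Without any 1 of the 6 h or 18 h arrays that p was 0.062 or 0.082, and with the probe sets of EIF4B averaged the difference was -0.44 (limma adjusted p = 0.033). Where its probe set lies relative to the edit was not analysed here. Of 11 melanoma and neural crest markers 10 passed the filter, with means from 5.52 (SOX9) to 13.68 (VIM). SOX10 averaged 10.27 and MITF 9.18, PMEL and TYR were dim at 5.68 and 5.57, and MLANA was under the filter at 4.88. At 18 h MITF and SOX9 rose by 1.63 and 0.32, CSPG4 fell by 0.74 and NES fell by 0.56. Of the markers of other cell types EPCAM, CDH1, PTPRC and CDH5 averaged 2.60, 3.14, 3.05 and 2.83, but KRT8 averaged 8.34, HBB 6.65, LYZ 6.64, PECAM1 6.13, CD3E 5.76 and KRT5 5.74.

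In the purine pathway PPAT makes the first committed step, and GART, PAICS, ADSL and ATIC carry the ring through to inosine monophosphate, which IMPDH2 turns towards guanine nucleotides and ADSL, in a further reaction, towards adenine nucleotides. In the pyrimidine pathway CAD makes dihydroorotate, DHODH oxidises it in the inner mitochondrial membrane with electrons passed to the respiratory chain, UMPS makes uridine monophosphate, and CTPS1 turns UTP into CTP. Proliferating cells draw on these pathways for RNA and DNA, and the transcription factor MYC, with its partner MAX, is known to bind many of these genes at the E-box motif.

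Promoters are shown because PPAT, which passed the test at 6 h, and PAICS, which did not, are divergent neighbours with overlapping promoter windows. RefSeq (GRCh38.p14) has windows of 250 bases before to 50 after the annotated start for 8 of the 10 genes. PPAT lies on the minus strand of chromosome 4 (56393362 to 56435615) and PAICS on the plus strand (56410507 to 56464578). The PPAT window (chr4:56435566-56435865) and 1 of the 3 PAICS windows (chr4:56435502-56435801, plus strand) have 236 bases in common, and their starts are 137 bases apart. The PAICS window is printed 5′ to 3′ with those of CTPS1 (chr1:40979446-40979745, plus strand), which had the largest fall of the 10, of DHODH (chr16:72008494-72008793, plus strand), which fell at 18 h, and of ATIC (chr2:215311809-215312108, plus strand), which did not pass the test. Capitals mark the E-box CACGTG.
PAICS: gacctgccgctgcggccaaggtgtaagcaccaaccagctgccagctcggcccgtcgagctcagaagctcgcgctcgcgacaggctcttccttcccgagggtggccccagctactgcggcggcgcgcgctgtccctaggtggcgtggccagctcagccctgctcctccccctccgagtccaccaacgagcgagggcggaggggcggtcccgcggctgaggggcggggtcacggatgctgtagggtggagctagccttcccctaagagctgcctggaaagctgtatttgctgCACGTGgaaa
CTPS1: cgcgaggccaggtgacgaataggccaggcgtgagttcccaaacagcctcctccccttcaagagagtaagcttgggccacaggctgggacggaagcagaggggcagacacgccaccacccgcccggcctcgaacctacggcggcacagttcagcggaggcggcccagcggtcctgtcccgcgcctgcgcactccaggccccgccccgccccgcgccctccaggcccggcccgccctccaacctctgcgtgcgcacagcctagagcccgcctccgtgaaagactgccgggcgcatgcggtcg
DHODH: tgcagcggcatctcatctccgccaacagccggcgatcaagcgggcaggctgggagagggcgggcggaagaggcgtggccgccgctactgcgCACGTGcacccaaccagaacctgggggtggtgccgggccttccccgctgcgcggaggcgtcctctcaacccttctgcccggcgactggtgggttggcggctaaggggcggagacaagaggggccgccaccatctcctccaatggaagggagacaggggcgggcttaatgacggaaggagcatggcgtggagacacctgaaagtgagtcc
ATIC: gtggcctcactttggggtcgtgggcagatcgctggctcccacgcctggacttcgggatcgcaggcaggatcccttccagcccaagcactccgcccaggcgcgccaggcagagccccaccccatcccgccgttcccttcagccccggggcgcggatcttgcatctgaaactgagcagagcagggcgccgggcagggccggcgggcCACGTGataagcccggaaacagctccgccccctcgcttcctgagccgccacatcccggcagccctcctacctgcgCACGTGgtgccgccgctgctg
The E-box was searched on both strands, on which it reads the same. It stood in at least 1 window of 4 of the 8 genes (PPAT, PAICS, DHODH and ATIC), against 8.77% of the 27305 genes in the table. Some genes have several windows, and by window it was 4 of 13, against 7.26% of 35116. PPAT and PAICS hold the same copy, and ATIC holds 2 copies. Whether the motif bears on the mRNA changes was not tested. CTPS1, CAD, UMPS and GART have none in these windows. The GC box GGGCGG was found in 7 of the 8 genes, UMPS being without it, against 48.3% of genes. By window it was 8 of 13, against 45%. The share of G and C bases in the 13 windows ran from 35.3% to 71.7%, against a median of 58.7% over all windows. The ETS core CCGGAAG was found in GART alone and the NRF1 core GCATGCG in CTPS1 alone, against 12.2% and 4.74% of genes. In CTPS1 the NRF1 core matched both strands, 1 base apart, and no match of another motif overlapped an E-box. A match is a description of the letters and not of binding. With the window cut to the 150 bases before the start, 1 gene held an E-box, 0 the ETS core and 0 the NRF1 core, against 5.64%, 8.33% and 3.26% of genes.

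After 6 h of vemurafenib the mRNAs of 2 of the 10 enzymes fell, 1 in each pathway, and 0 rose. PPAT fell 1.44-fold and CTPS1 1.35-fold. On their chosen probe sets the other 8 did not pass the test, and their fitted differences lay between -0.15 and 0.17 on the log2 scale. Over all genes tested 16.2% changed at 6 h, 8.82% lower and 7.34% higher (limma, Benjamini-Hochberg adjusted p under 0.05).

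PPAT, the amidotransferase that commits phosphoribosyl pyrophosphate (PRPP) to purines, read 9.46, 8.97, 8.58 in KO/LacZ and 9.51, 8.96, 8.36 in KO/eIF4B. All 4 treated arrays lay below both vehicle arrays, and the 18 h arrays lay below the 6 h arrays. At 6 h it changed by -0.49 in KO/LacZ and -0.55 in KO/eIF4B, with a fitted log2 difference of -0.52 (SE 0.08, limma, Benjamini-Hochberg adjusted p = 0.019).

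CTPS1 (chromosome 1, 40979696 to 41012565), the enzyme that makes CTP, read 10.47, 10.10, 8.88 in KO/LacZ and 10.51, 10.02, 8.92 in KO/eIF4B. Here too the treatments did not overlap, and how many of all genes show such separations between arrays, at 6 h or 18 h, was not counted. The change at 6 h was -0.37 in KO/LacZ and -0.49 in KO/eIF4B, fitted at -0.43 (SE 0.06, limma, Benjamini-Hochberg adjusted p = 0.016). Leaving out any 1 of the vehicle or 6 h arrays ended both calls at 6 h. Adjusted p was then 0.066 without the knockout vehicle array, 0.14 without the rescued vehicle array, 0.098 without the knockout 6 h array and 0.087 without the rescued 6 h array for PPAT, and 0.099, 0.14, 0.056 and 0.10 in that order for CTPS1 (limma), while the fitted log2 differences stayed between -0.60 and -0.37.

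Among the rest at 6 h, IMPDH2 was fitted at 0.17 (limma adjusted p = 0.15) and UMPS at -0.15 (limma adjusted p = 0.16). PAICS, the neighbour of PPAT, was fitted at 0.0029, with a 95% interval from -0.17 to 0.17, and read 12.13 and 12.02 at 6 h, against 12.11 and 12.04 under vehicle (KO/LacZ and KO/eIF4B). The PPAT interval at 6 h ran from -0.74 to -0.31 and did not reach that of PAICS. The difference between the 2 genes was not itself tested.

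**Figure D1:**
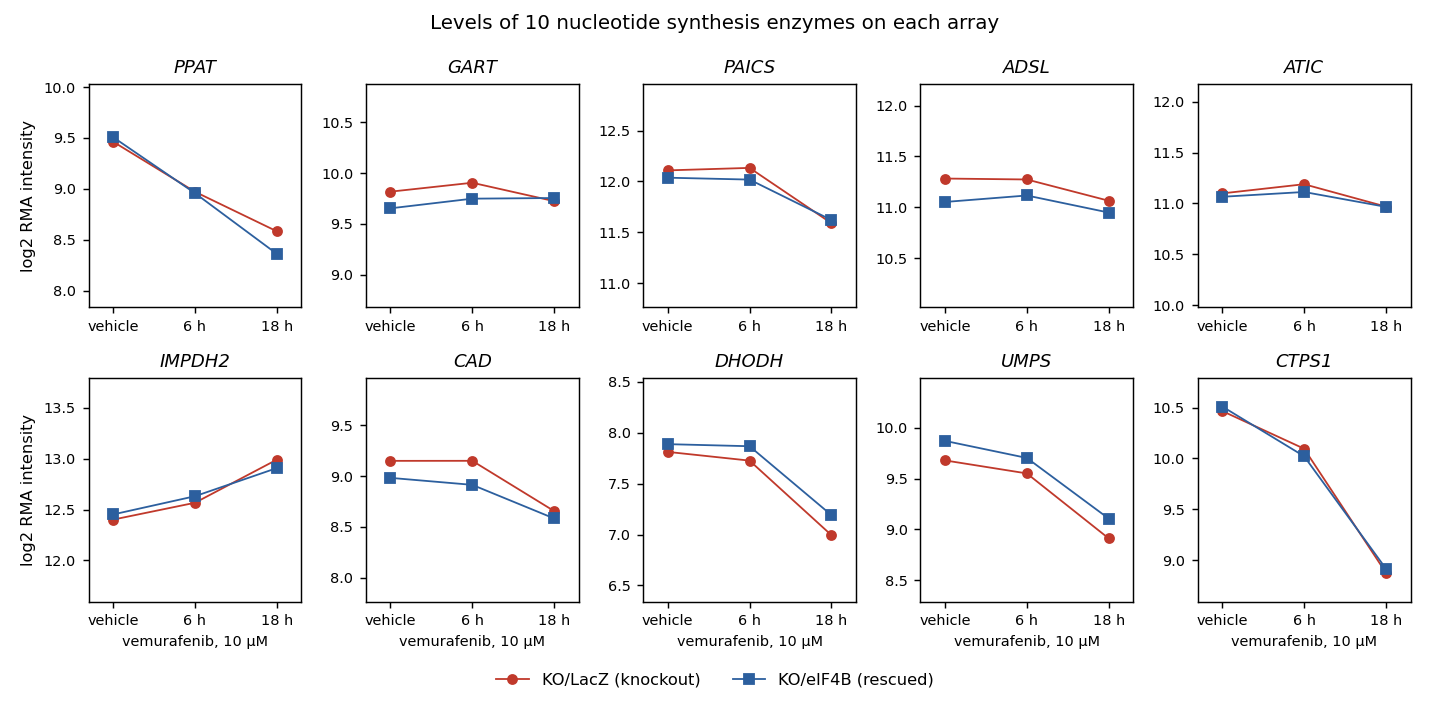
Each panel shows the log2 RMA intensity of 1 enzyme (highest-mean probe set) under vehicle, 6 h and 18 h of vemurafenib, with 1 point per array, circles for KO/LacZ and squares for KO/eIF4B. All vertical axes span the same number of log2 units. PPAT and CTPS1 were lower at 6 h and lower again at 18 h, DHODH, UMPS, CAD and PAICS were lower at 18 h, and IMPDH2 was higher.

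After 18 h, 6 of the 10 enzymes fell, 1 rose and 3 did not pass the test, against 51.4% of all genes changed, 23.3% lower and 28.1% higher (limma, Benjamini-Hochberg adjusted p under 0.05). All 4 pyrimidine enzymes fell, with a median log2 difference of -0.76. Of the 6 purine enzymes PPAT and PAICS fell, IMPDH2 rose, and GART, ADSL and ATIC did not pass, with a median of -0.14. The median over the 10 was -0.46, against 0.0087 over all genes tested. Of the 5 fibroblast markers the secreted LUM and DCN rose at 18 h by 2.49 and 1.78, COL1A1 was fitted at 0.02, and COL1A2 and PDGFRA were under the filter. Their summed intensity was 414.7 and 514.6 under vehicle, 573 and 652.3 at 6 h and 1002 and 1290 at 18 h (KO/LacZ and KO/eIF4B), and their part in the result was not tested. KRT8 rose by 0.39, VWF rose by 0.24 and LYZ fell by 0.86, and the part of their cell types was not tested either. The arrays read total RNA of whole cultures, so a smaller share of cells that express a gene and less mRNA per cell cannot be told apart.

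CTPS1 had the largest change of the 10, 3.01-fold lower at 18 h (log2 difference -1.59, SE 0.06, limma, Benjamini-Hochberg adjusted p = 0.00020). The change was -1.59 in each line. UMPS (chromosome 3, 124730452 to 124749273), which makes uridine monophosphate, read 9.68, 9.55, 8.91 in KO/LacZ and 9.87, 9.70, 9.11 in KO/eIF4B. Both 18 h arrays lay below the other 4, and UMPS fell 1.70-fold (log2 difference -0.76, SE 0.06, limma adjusted p = 0.00062).

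DHODH (chromosome 16, 72008744 to 72027659), the mitochondrial enzyme, read 7.81, 7.73, 6.99 in KO/LacZ and 7.89, 7.87, 7.19 in KO/eIF4B. On this probe set the 6 h arrays stood close to vehicle, and at 18 h DHODH was 1.69-fold lower (log2 difference -0.76, SE 0.06, limma adjusted p = 0.00075).

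CAD (chromosome 2, 27217369 to 27243943), which carries out the opening steps of the pathway in 1 polypeptide, read 9.15, 9.15, 8.66 in KO/LacZ and 8.98, 8.91, 8.58 in KO/eIF4B. The 18 h arrays were again the lowest, and CAD fell 1.36-fold (log2 difference -0.45, SE 0.07, limma adjusted p = 0.0043). The 4 pyrimidine enzymes thus fell by 0.45 to 1.59 log2 units, and each was lower at 18 h in both lines. Of the 10 enzymes 8 were lower in both lines at 18 h, against 40.5% of all genes tested.

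On the purine side PPAT had fallen 2.02-fold at 18 h, by 0.88 log2 units in KO/LacZ and 1.15 in KO/eIF4B (fitted log2 difference -1.01, SE 0.08, limma adjusted p = 0.00074). With its 3 probe sets averaged the PPAT difference was -0.62 at 18 h and -0.31 at 6 h, still past the threshold (limma adjusted p-values of 0.00061 and 0.023). PAICS, which carries out a carboxylation and the next ligation of the pathway, read 12.11, 12.13, 11.59 in KO/LacZ and 12.04, 12.02, 11.62 in KO/eIF4B. It fell 1.38-fold at 18 h (log2 difference -0.47, SE 0.07, limma adjusted p = 0.0034).

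IMPDH2 (chromosome 3, 49024325 to 49029398), the rate-limiting enzyme towards guanine nucleotides, moved the other way. It read 12.40, 12.57, 12.99 in KO/LacZ and 12.45, 12.63, 12.91 in KO/eIF4B. Both 18 h arrays lay above all others, and IMPDH2 rose 1.44-fold (log2 difference 0.52, SE 0.07, limma adjusted p = 0.0026).

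The trifunctional GART (chromosome 21, 33503931 to 33542893) read 9.82, 9.91, 9.72 in KO/LacZ and 9.65, 9.75, 9.76 in KO/eIF4B, and its groups overlapped. Its fitted log2 difference at 18 h was 0.0041, with a 95% interval from -0.19 to 0.20. ADSL (chromosome 22, 40346500 to 40387527), a lyase used both before and after inosine monophosphate, read 11.28, 11.27, 11.07 in KO/LacZ and 11.05, 11.12, 10.95 in KO/eIF4B.
ATIC (chromosome 2, 215312059 to 215368592), which closes the purine ring, read 11.10, 11.19, 10.97 in KO/LacZ and 11.07, 11.11, 10.97 in KO/eIF4B. The 95% intervals at 18 h ran from -0.32 to -0.00 for ADSL (limma adjusted p = 0.086) and from -0.27 to 0.04 for ATIC (limma adjusted p = 0.17), so small falls of both lie within them.

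**Figure D2:**
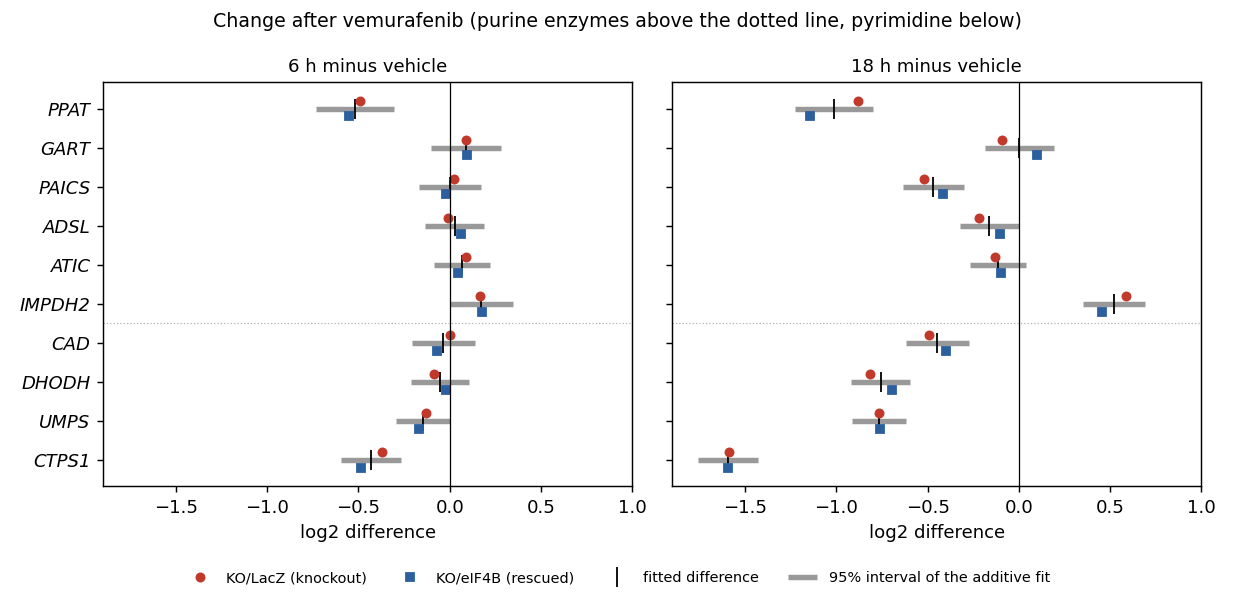
Log2 difference from vehicle at 6 h (left) and 18 h (right) for each enzyme, with the change in KO/LacZ (circle) and KO/eIF4B (square), the fitted difference (tick) and its 95% interval (grey bar). At 18 h the intervals of PPAT, PAICS and all 4 pyrimidine enzymes lie below 0, that of ADSL ends just at 0 and that of IMPDH2 lies above 0.

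All 7 calls at 18 h held when any 1 array was left out. Against a minimum change of 0.5 log2 units, PPAT, DHODH, UMPS and CTPS1 passed, and PAICS, CAD and IMPDH2 did not. Of all genes tested 11.5% passed this rule at 18 h. ADSL passed under 2 of the alternatives, at limma adjusted p-values of 0.016 with an intensity trend and a robust prior in the variance model and 0.039 with its probe sets averaged.

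Levels at 18 h were also set against those at 6 h, in the same additive fit of all 6 arrays, for the change between these times. This comparison shares its 18 h arrays with that against vehicle. The same 6 enzymes were lower and IMPDH2 was higher, against 34% of all genes changed, 14.9% lower and 19% higher (limma, Benjamini-Hochberg adjusted p under 0.05). CTPS1 fell by a further 1.16 log2 units (SE 0.06, limma adjusted p = 0.0021), and DHODH and UMPS fell by 0.70 and 0.62 (limma adjusted p-values of 0.0032 and 0.0035). PPAT fell by 0.49, PAICS by 0.47 and CAD by 0.41 (limma adjusted p-values of 0.012, 0.0075 and 0.011), and IMPDH2 rose by 0.35 (limma adjusted p = 0.017). For PPAT the fitted differences of the earlier and the later interval were -0.52 and -0.49, and for CTPS1 they were -0.43 and -1.16. Without the knockout 6 h array 3 of the 7 calls were left (CTPS1, DHODH and UMPS), and PPAT, PAICS, IMPDH2 and CAD had limma adjusted p-values of 0.063, 0.061, 0.11 and 0.083. Without the rescued 6 h array PPAT and IMPDH2 missed the threshold (limma adjusted p-values of 0.062 and 0.056), and without the knockout 18 h array IMPDH2 and CAD did (0.070 and 0.052).

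The other probe sets of the same genes were set beside the chosen ones, with p-values adjusted over all probe sets that passed the filter. At 18 h the second PPAT probe set, 209434_s_at, fell by 1.09 log2 units (limma adjusted p = 0.00036). The PPAT probe set 235833_at, with a mean of 6.27, rose by 0.24 (limma adjusted p = 0.040). Both other PAICS probe sets fell, 201014_s_at by 0.52 and the dim 214664_at by 1.11 (limma adjusted p-values of 0.0020 and 0.00082). UMPS fell by 0.87 and 0.73 in 202706_s_at and 202707_at (limma adjusted p-values of 0.00082 and 0.0012), which had means of 9.01 and 5.63. The second ADSL probe set, 210250_x_at, fell by 0.22 (limma adjusted p = 0.043).

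DHODH fell at 18 h in all 3 of its probe sets, by 0.65 in 217647_at and 0.98 in 213631_x_at besides the chosen 213632_at. The means of 217647_at and 213631_x_at were 5.99 and 5.61, against 7.58 for the chosen probe set. Unlike the chosen probe set, both others had already fallen at 6 h, by 0.43 and 0.39 (limma adjusted p = 0.028 for each). The probe sets of GART disagreed in direction. The chosen 212378_at and 2 others, 212379_at and 217445_s_at, were fitted between -0.08 and 0.0041, but 210005_at fell by 0.62 (limma adjusted p = 0.0015) and the dim 230097_at rose by 0.67 (limma adjusted p = 0.0027). This 210005_at read 8.77, 8.95, 8.18 in KO/LacZ and 8.89, 8.95, 8.25 in KO/eIF4B, so both 18 h arrays stood below the rest. Where on the GART transcript these probe sets lie was not analysed here. The result for GART holds for its brightest probe set. The remaining probe sets (4 of GART, 1 of CAD and 1 of UMPS) had means under 5 log2 units and were not tested. ATIC, IMPDH2 and CTPS1 rest on 1 probe set each. Probe sets named _x_at can share probes with other sequences. They are the chosen one of UMPS (215165_x_at), 213631_x_at of DHODH and 210250_x_at of ADSL, and the ADSL value with probe sets averaged draws on the last. UMPS also fell on 202706_s_at and 202707_at, which are not named _x_at. Whether probe sets named _s_at share probes was not analysed here.

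**Figure D3:**
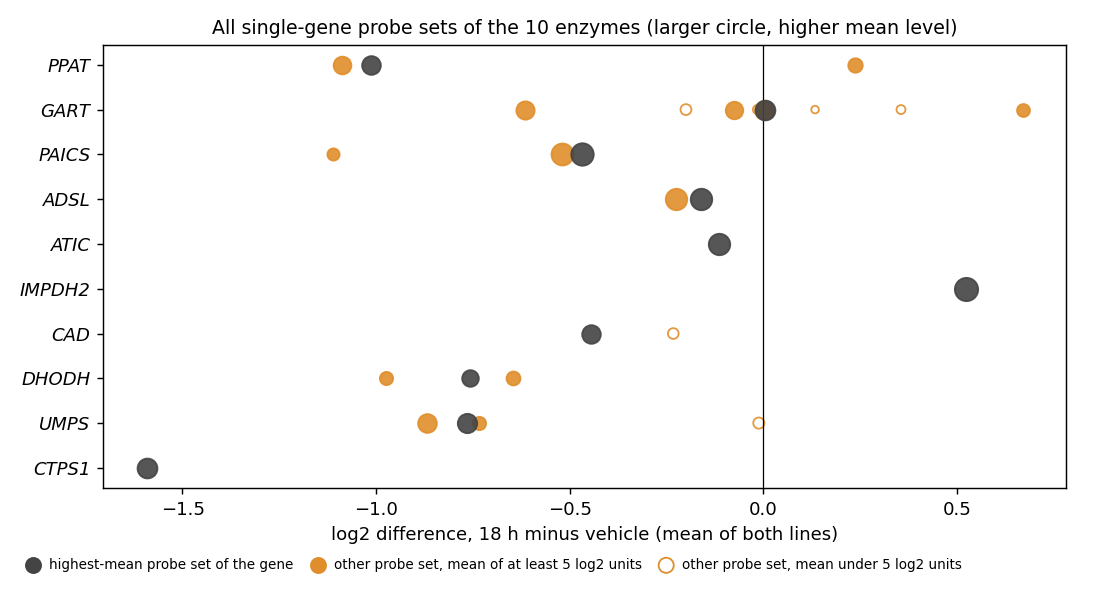
Each circle is 1 of the 29 probe sets, placed by its log2 difference between 18 h and vehicle averaged over both lines and sized by its mean level. Filled dark circles are the chosen probe sets, filled orange ones other probe sets at or above 5 log2 units and open ones those below. DHODH, PAICS, ADSL and CAD lie on the same side of 0 in all their probe sets, as does UMPS, whose dim 239800_at is close to 0. PPAT lies on both sides of 0, and GART spreads from -0.62 to 0.67.

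No enzyme of the 10 was called different between the lines. In the comparison of knockout with rescued cells over all treatments 0 of the 10 passed, against 2.5% of all genes, 1.44% higher and 1.06% lower (limma, Benjamini-Hochberg adjusted p under 0.05), and at an unadjusted p under 0.05 it was 4 of the 10, against 23% of all genes. UMPS had the largest difference, -0.18 (SE 0.05, 95% interval -0.30 to -0.06, limma adjusted p = 0.12), and was lower in the knockout line in all 3 pairs, by 0.19, 0.15 and 0.19 under vehicle, 6 h and 18 h. ADSL was fitted at 0.17 (95% interval 0.04 to 0.30, limma adjusted p = 0.15) and was higher in the knockout line in all 3 pairs. CAD was fitted at 0.16 (95% interval 0.02 to 0.30, limma adjusted p = 0.18) and DHODH at -0.14 (95% interval -0.27 to -0.01, limma adjusted p = 0.20). PPAT, GART, PAICS, ATIC, IMPDH2 and CTPS1 had intervals that held 0. With an intensity trend and a robust prior in the variance model UMPS and ADSL passed, at limma adjusted p-values of 0.042 for UMPS and 0.031 for ADSL.

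The response to the drug was also compared between the lines. For a difference shared by 6 h and 18 h, 0 of the 10 and 0 of all 13506 genes passed (limma), and at an unadjusted p under 0.05 it was 0 of the 10 and 302 genes. The fitted differences in response, knockout minus rescued, lay between -0.10 for GART and 0.16 for PPAT, and the PPAT interval ran from -0.24 to 0.57, and with 1 residual degree of freedom the count of 0 does not show that the responses were alike. At single times, where no test can be made, the largest was 0.12 at 6 h (CTPS1) and 0.27 at 18 h (PPAT). The median size over all genes was 0.09 at 6 h and 0.11 at 18 h, and 1 of the 10 enzymes lay above it at 6 h and 5 at 18 h.

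The enzymes IMPDH2 and CTPS1 each have a paralog that makes the same reaction, and each pair split. IMPDH1 read 8.75, 8.59, 8.25 in KO/LacZ and 8.79, 8.66, 8.37 in KO/eIF4B. It fell by 0.46 at 18 h (SE 0.06, limma adjusted p = 0.0026) while IMPDH2 rose by 0.52. CTPS2 read 6.87, 7.12, 7.52 in KO/LacZ and 7.16, 7.20, 7.69 in KO/eIF4B, and rose by 0.59 (SE 0.07, limma adjusted p = 0.0022) while CTPS1 fell by 1.59. Both directions were seen in each line. Against a minimum change of 0.5 log2 units CTPS1 passed, and IMPDH1 and CTPS2, like IMPDH2, did not (limma adjusted p-values of 1 and 0.68 for IMPDH1 and CTPS2). The levels of 2 paralogs cannot be set against each other, since they come from different probe sets.

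**Figure D4:**
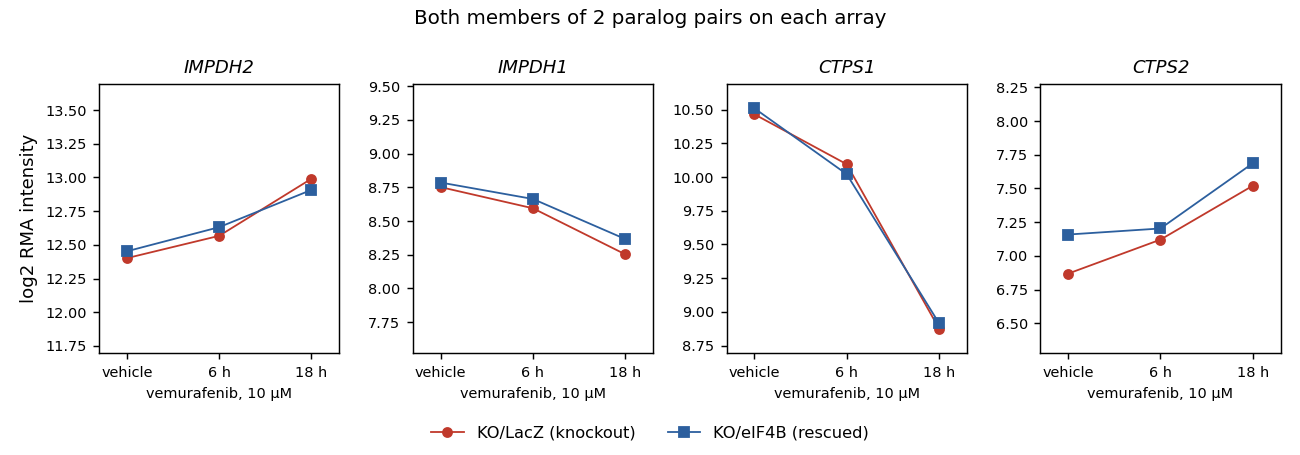
Log2 RMA intensity of IMPDH2 and its paralog IMPDH1 and of CTPS1 and its paralog CTPS2 on each array, circles for KO/LacZ and squares for KO/eIF4B, over vehicle, 6 h and 18 h. IMPDH2 and CTPS2 were highest at 18 h, and IMPDH1 and CTPS1 were lowest.

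The other genes of nucleotide metabolism were counted by list. Of 8 other purine synthesis genes tested 6 fell and 1 rose at 18 h, with a median of -0.49. Of all genes tested 23.3% were lower and 28.1% higher at 18 h. PRPS1 and PRPS2, which make the PRPP that PPAT uses, fell by 0.84 and 0.75 (limma adjusted p-values of 0.00069 and 0.0011), and PFAS, which acts between steps of GART, fell by 0.53 (limma adjusted p = 0.0035). GMPS, which makes GMP, fell by 0.61, but by 0.14 and past no threshold with its probe sets averaged (limma adjusted p = 0.097). PRPSAP1, known as an associated protein of the PRPP synthetases, rose by 0.59 (limma adjusted p = 0.0012).

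In the list of CTPS2 and nucleotide kinases 1 of 5 fell at 18 h, DTYMK of thymidine nucleotide synthesis by 0.55 (limma adjusted p = 0.0045, and a difference of -0.34 with probe sets averaged), and CTPS2 alone rose. Deoxynucleotide genes fell in 5 of 8 cases and rose in 2, with a median of -0.28. For both lists the shares over all genes were 23.3% lower and 28.1% higher. RRM2, the S-phase subunit of ribonucleotide reductase, and DCTPP1, which cleans the dCTP pool, fell by 0.99 and 1.03 (limma adjusted p-values of 0.00046 and 0.00035). RRM2B, the subunit induced by p53, rose by 0.62 (limma adjusted p = 0.0012).

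Of 10 salvage genes 4 fell and 3 rose at 18 h, with a median of -0.01, against 23.3% lower and 28.1% higher of all genes. DCK, which phosphorylates deoxycytidine, fell by 0.89 (limma adjusted p = 0.00083). Of 10 breakdown genes 5 fell and 2 rose, with a median of -0.29, against the same shares of all genes. The ectonucleotidase NT5E read 8.14, 7.49, 4.90 in KO/LacZ and 8.44, 8.07, 5.20 in KO/eIF4B. Its 18 h values lay around the minimum of 5 log2 units, so its fitted difference of -3.24 (limma adjusted p = 0.00011) rests on values not shown to be above background. The purine nucleoside phosphorylase PNP fell by 1.66 (limma adjusted p = 0.00023) and had already fallen by 0.90 at 6 h (limma adjusted p = 0.0034). In the list of one-carbon and glutamine supply 3 of 8 rose and 1 fell, against 28.1% and 23.3% of all genes. The fall was that of MTHFD1, which was 0.16 and not called with its probe sets averaged and missed the threshold without either vehicle array (limma adjusted p-values of 0.080 and 0.057 without the KO/LacZ and the KO/eIF4B one). SHMT2, of serine and glycine conversion in mitochondria, rose by 0.52 and missed it without the KO/eIF4B vehicle or 18 h array (limma adjusted p-values of 0.094 and 0.091). PHGDH, of serine synthesis, rose by 1.25 (limma adjusted p = 0.0026). ALDH1L2, of mitochondrial folate metabolism, read 4.71, 5.91, 7.09 in KO/LacZ and 4.83, 7.31, 8.40 in KO/eIF4B. It passed the filter through its treated arrays, and its fitted difference of 2.97 at 18 h (limma adjusted p = 0.0014) was 1.72 with probe sets averaged. At 6 h the other purine synthesis list held 1 rise, salvage 1 fall, breakdown 4 falls, one-carbon supply 1 rise and the remaining lists of enzymes 0 calls, against 16.2% of all genes changed. Without the KO/LacZ vehicle array PRPSAP1, DCK, UPP1, NT5E and GDA missed the threshold (limma adjusted p-values from 0.11 to 0.18), which left the fall of PNP and the rise of ALDH1L2. Without the KO/eIF4B 6 h array ALDH1L2 missed it too (limma adjusted p = 0.11).

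Among the regulators, MYC read 9.27, 7.04, 5.64 in KO/LacZ and 9.18, 7.43, 6.24 in KO/eIF4B. It was 3.99-fold lower at 6 h and 9.77-fold lower at 18 h (limma adjusted p-values of 0.0034 and 0.00028). Its 18 h values lay little above the minimum of 5 log2 units and were not shown to be above background. In that list 2 rose and 3 fell of the 8 tested at 18 h, against 28.1% and 23.3% of all genes. NRF1, a factor of nuclear genes for mitochondria, fell by 0.58. ATF4 and MNT rose by 0.45 and 0.49 (limma adjusted p-values of 0.029 and 0.0094). Over the alternatives these 2 ran from 0.23 to 0.66 and from 0.02 to 0.63. At 6 h ATF4 rose by 0.62 and MAX fell by 0.32 (limma adjusted p-values of 0.031 and 0.032). Without the filter on the mean both missed the threshold (limma adjusted p-values of 0.0502 and 0.064). MAX also missed it without the line as a term (limma adjusted p = 0.056). Neither call held when either of the 6 h arrays was left out. Over the alternatives the 6 h differences ran from 0.41 to 0.83 for ATF4 and from -0.36 to -0.27 for MAX. The part of MYC in the enzymes' changes was not tested.

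**Figure D5:**
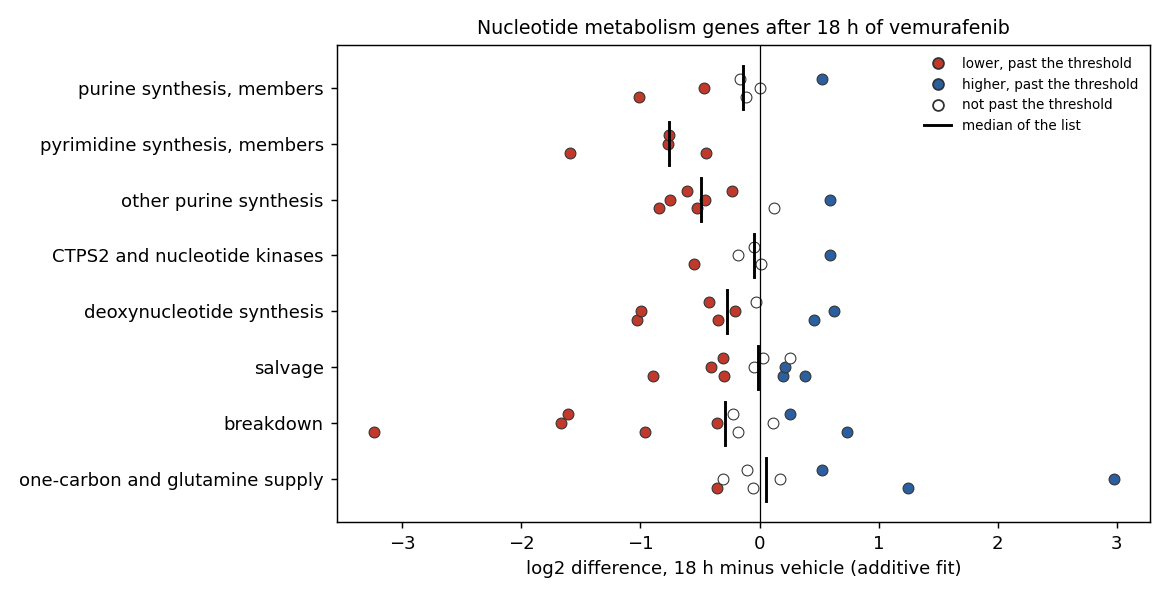
Each circle is 1 gene, placed by its fitted log2 difference between 18 h and vehicle, in rows for the 2 groups of enzymes and 6 other lists. Red circles passed the threshold as lower, blue ones as higher and open ones did not pass, and the black bar is the median of the list. The 4 pyrimidine enzymes are all red, and the lowest circle is NT5E at -3.24.

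The mean profile of the 10 enzymes, each centred on its own mean, was 0.20 and 0.17 log2 units above the mean under vehicle, 0.13 and 0.08 at 6 h and -0.29 and -0.29 at 18 h (KO/LacZ and KO/eIF4B). By root mean square distance over the 6 arrays PAICS (0.05) and CAD (0.07) were nearest to it and CTPS1 (0.47) and IMPDH2 (0.43) farthest. The genes outside the 10 nearest to this profile were PWP1, UBAP2, PELP1, TELO2, DLAT and CCNQ, at distances of 0.007 to 0.021 log2 units. With 6 arrays many genes share such a profile, and the likeness is a description.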

How the data were processed

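Total RNA of A375 cells was labelled as biotinylated cRNA and hybridised to 6 Affymetrix arrays, per the labels' protocols. The authors deposited linear-scale RMA intensities. The submitters' processing notes name RMA and affy, with versions not given in the sources used here. Since RMA equalises array distributions, a global shift in mRNA per cell is not visible, and the number of arrays limits the precision.

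Log2 of the deposited intensities was taken, 62 control probe sets were left out, and 41091 of 54675 probe sets carried 1 gene symbol in the platform annotation (1801 several, 11721 unnamed here). Of the single-symbol probe sets 41037 matched RefSeq's GRCh38.p14 gene table, and 0 symbols changed. Each gene was represented by its highest-mean probe set, and 13506 genes passing the minimum mean (5 log2 units) were fitted with limma 3.58.1 in R 4.3.3 (additive model of line and treatment, residual degrees of freedom 2, prior 3.19, Benjamini-Hochberg adjustment over all genes, threshold 0.05). A term for a shared difference in response had 1 residual degree of freedom. The fit was tested on simulated data, and with so few residual degrees of freedom a gene that did not pass is not shown to be unchanged.

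The members and lists were chosen with earlier results of these data known. All members are named, list genes were named from up to 4 with the largest change past the threshold, and IMPDH1 and CTPS2 as paralogs, while PFAS at 18 h was chosen after its values were seen. Alternatives changed the filter, the log offset (16), the normalization, the probe set rule, the variance model, the arrays and the covariates. The planned protein identities of the paralogs were not analysed here. List genes without a single-gene probe set at the minimum mean were not analysed here either.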

Additional observations from a re-analysis of the deposited data

How the results depend on the processing

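The values were recomputed under each alternative, and counts below are genes past the threshold in limma. The 6 h call count was 1398 without the filter on the mean, 976 without the line as a term and 227 beyond 0.5 log2 units (then 0 enzymes), and 3880 probe sets passed in a fit over all of them. At 18 h against vehicle it was 1558 beyond 0.5 log2 units (4 enzymes) and 13894 over all probe sets, and at 18 h against 6 h it was 2727 without the line, 240 beyond 0.5 (1 enzyme) and 8575 over all probe sets. Knockout against rescued gave 58 genes without the filter, 513 with a mean of at least 6, 541 with log2(value + 16), 1196 with trend and robust prior (2 enzymes), 0 with only 4 arrays, 1 without the treatment and 1 beyond 0.5, and the shared difference in response gave 9 with trend and robust prior. With 1 array left out, the counts ran from 594 to 2530 genes and 0 to 2 enzymes at 6 h, from 4310 to 6563 and 7 to 7 at 18 h, from 1435 to 4252 and 3 to 7 for 18 h against 6 h, and from 0 to 50 and 0 to 0 for the lines.

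Signs turned for values that were not called, apart from MTHFD1. At 6 h PAICS was -0.0146 with centred arrays, -0.0075 with cyclic loess and -0.0852 with probe sets averaged, and CAD was 0.0021 with probe sets averaged. With 1 array left out PAICS ran from -0.0444 to 0.0502, ADSL from -0.0195 to 0.074 and CAD from -0.0923 to 0.0241 at 6 h, GART from -0.0913 to 0.0996 at 18 h against vehicle and from -0.183 to 0.0082 against 6 h, and for the lines PPAT from -0.0153 to 0.118, IMPDH2 from -0.0576 to 0.0159 and CTPS1 from -0.0422 to 0.0171. GART at 18 h was -0.0031 with centred arrays, and MTHFD1 was 0.16 with probe sets averaged. For the lines CTPS1 was 0.0053 with centred arrays, CTPS2 0.0821 with probe sets averaged and IMPDH2 0.0159 over 4 arrays. The shared difference of CAD was 0.0097 with cyclic loess and 0.0238 with probe sets averaged. The causes were not tested. Where an array was left out, its partner in the other line was assumed to vary like the rest. Detection calls were not used here, so signal over background is unknown and dim probe sets bound no change. Further calls gained were DHODH at 6 h with probe sets averaged (limma adjusted p = 0.027), IMPDH2 at 6 h with trend and robust prior (limma adjusted p = 0.019) and, for 18 h against 6 h, ADSL and ATIC with a mean of at least 6 (limma adjusted p-values of 0.048 and 0.044) and with trend and robust prior (0.012 and 0.010). CTPS2 lost its call for 18 h against 6 h without the line (limma adjusted p = 0.051). The line term pairs the arrays of a line across treatments, and the counts without the line are those without this pairing. With 1 array per line and treatment, no further pairs could be formed.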
